A study of Mus musculus with 18 samples.

Results

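Homeostatic astrocytes are recognised by a small set of transcripts that stay on in the healthy adult brain, and 10 of these genes were followed here through every RNA preparation of the series. They were chosen by name: Slc1a2, Slc1a3, Glul, Aqp4, Gja1, Gjb6, Aldh1l1, Aldoc, Sox9 and S100b. The annotation named 21 probe sets for 9 of the 10, out of 45037 probe sets and 17097 named genes on the array. Glul, which encodes the enzyme that turns glutamate into glutamine, had no named probe set and has no value below. Of the 21 probe sets, 19 passed the filter on low values, a mean log2 value above 5.95, and were tested. In counts of test results and of mice that do not overlap, members means these 19 probe sets. Probe sets of the same gene are not separate evidence.

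The tissue was cortex and striatum, dissected together, from 3 TgCPEB4∆4 mice and 3 CTRL mice, all 6 weeks old. CPEB4 is a protein that binds cytoplasmic polyadenylation elements in messenger RNA, and TgCPEB4∆4 mice carry a transgene for it. The promoter that drives the transgene, the cells that express it and any allele that CTRL mice share with it were not stated in the sources read. Each mouse gave 1 array of total RNA (INPUT), 1 of RNA released from a poly(U) column at 25% formamide and enriched for short poly(A) tails (WASH), and 1 of RNA released at 90% formamide and enriched for long tails (ELUTED).

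Astrocytes clear glutamate from synapses through the transporters of Slc1a2 (GLT-1) and Slc1a3 (GLAST), and Glul converts what is taken up. They are joined into a network by gap junctions of the connexins Gja1 and Gjb6, and they line vessels and the pial surface with end-feet rich in the water channel Aqp4. Aldh1l1 (a folate enzyme), Aldoc (an aldolase of glycolysis), Sox9 (a transcription factor of glial fate) and S100b (a calcium-binding protein) complete the set. The level of a transcript says how much of it is present, and the length of its poly(A) tail is linked to its stability and translation, so a marker can be read on both scales. In bulk tissue, a change in the number of astrocytes and a change in the RNA per astrocyte cannot be told apart.

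The bases before the annotated starts of 3 members are shown because these genes stand for the patterns described below: Slc1a3 leaned to the long-tail fraction, S100b to the short-tail fraction, and the 5 probe sets of Gja1 disagreed in size. The sequences are from RefSeq (GRCm38.p6), each the 250 bases before the start, 5′ to 3′ on the gene's strand, at chr15:8710808-8711057 (minus strand), chr10:76253586-76253835 (plus strand) and chr10:56377050-56377299 (plus strand). Capitals mark TTGGCA, a core of the binding sequence of nuclear factor I, a family of transcription factors active in astrocytes.
Slc1a3: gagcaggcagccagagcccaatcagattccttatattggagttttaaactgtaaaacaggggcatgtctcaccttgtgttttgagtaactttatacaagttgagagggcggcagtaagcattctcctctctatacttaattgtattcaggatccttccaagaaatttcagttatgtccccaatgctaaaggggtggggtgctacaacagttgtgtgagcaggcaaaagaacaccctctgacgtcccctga
S100b: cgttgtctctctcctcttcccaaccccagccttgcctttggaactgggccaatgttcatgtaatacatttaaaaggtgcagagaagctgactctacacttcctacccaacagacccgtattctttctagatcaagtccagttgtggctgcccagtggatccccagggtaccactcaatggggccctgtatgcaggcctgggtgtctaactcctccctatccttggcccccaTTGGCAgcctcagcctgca
Gja1: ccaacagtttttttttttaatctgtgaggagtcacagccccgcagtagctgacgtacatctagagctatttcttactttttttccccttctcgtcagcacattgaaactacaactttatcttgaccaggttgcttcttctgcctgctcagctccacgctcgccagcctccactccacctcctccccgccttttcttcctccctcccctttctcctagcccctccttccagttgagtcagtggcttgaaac

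The promoter table held an entry for 8 of the 10 members. TTGGCA, searched on both strands, was found in S100b, 19 to 14 bases before the start, and in Aldoc, 146 to 141 bases before it. It occurs in 12.3% of all 32851 promoter windows of the same length. The Sox-factor cores ACAATG (both strands, 10.7% of windows) and ACAAAG (both strands, 16.5% of windows) and the TATA box TATAAA (gene strand, 7.6% of windows) were not among the letters of any member's window. The Slc1a2 window lay inside the annotated span of that gene, so the bases before the gene's start were not searched. That of Aldh1l1 overlapped the gene's start. Aldoc had a further window inside its span, without TTGGCA.

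The whole set of arrays sets the limits for all that follows. Replicates are separate mice by their labels, and all values are RMA log2 expression, so levels of different probe sets cannot be set against each other. The highest nonspecific control probe set of an array lay between 7.07 and 7.52 in total RNA of both genotypes. In the long-tail fraction it was 5.83, 6.29 and 5.64 in TgCPEB4∆4 mice and 7.30, 5.53 and 6.11 in CTRL mice, so the long-tail array of CTRL mouse 1 stands apart. Values below these are not exact levels. In total RNA of all 6 mice, 12 of 12 neuronal markers, 9 of 9 named oligodendrocyte markers and 7 of the 9 member genes exceeded this control, as did 2 of 8 ependymal and choroid plexus markers; Gjb6 exceeded it in 0 mice and Slc1a3 in 2. The SD of the tail ratio, defined below, over all tested probe sets was 0.61, 0.62 and 0.39 in TgCPEB4∆4 mice and 1.19, 0.59 and 0.86 in CTRL mice, so the genotypes overlapped and CTRL mice 1 and 3 were the most spread.

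In total RNA, most astrocyte markers had higher mean values in TgCPEB4∆4 mice, and no difference passed the test. Of the 19 probe sets, 18 had a positive difference, with a median over the 9 genes of 0.33 on the log2 scale, against 0.03 over all 11974 genes. The limma adjusted p-values lay between 0.42 and 0.97. None of the 27022 probe sets tested passed, a background of 0%, although 2935 of them, 10 of these members, had an unadjusted p under 0.05. In 7 members all TgCPEB4∆4 mice lay above all CTRL mice, as did 11.1% of all probe sets. In 1 member all lay below, as did 7.3% of all. TgCPEB4∆4 mouse 1 held the highest value in 17 of the 19 members, and in 26.9% of all probe sets.

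Slc1a2, which takes up most synaptic glutamate, differed least in total RNA when each of the 9 genes was taken at its brightest probe set. Its probe set 1451627_PM_a_at read 12.65, 12.69 and 12.67 in TgCPEB4∆4 mice and 12.71, 12.75 and 12.70 in CTRL mice. All TgCPEB4∆4 mice lay below all CTRL mice. The difference was -0.05 ± 0.09 (SE), with a 95% interval of -0.27 to 0.16 and a limma adjusted p of 0.84. This probe set never ranked below percentile 99.8 of its array, near the bright end of the scale. A second probe set, 1459014_PM_at, differed by 0.02 ± 0.10, with an adjusted p of 0.96.

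Slc1a3, the other astrocytic glutamate transporter, followed a different course. It read 8.10, 7.01 and 7.08 in TgCPEB4∆4 mice and 7.03, 7.12 and 6.89 in CTRL mice. Only TgCPEB4∆4 mouse 1 stood apart, and the other 2 TgCPEB4∆4 mice lay within the CTRL range. It exceeded the highest nonspecific control on 1 of 3 TgCPEB4∆4 arrays and on 1 of 3 CTRL arrays, so these are mostly not exact levels. The limma difference was 0.38 ± 0.26, with an adjusted p of 0.58.

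Aqp4, the water channel of the end-feet, had 3 probe sets, each with a positive difference. The brightest, 1434449_PM_at, read 11.44, 11.06 and 10.55 in TgCPEB4∆4 mice and 10.49, 10.47 and 10.35 in CTRL mice, without overlap. The difference was 0.58 ± 0.20, a fold of 1.5, with a limma adjusted p of 0.43. In 1425382_PM_a_at the values were 10.84, 10.44 and 9.48 in TgCPEB4∆4 mice, against 9.61, 9.47 and 9.46 in CTRL mice, so that TgCPEB4∆4 mouse 3 lay among the CTRL mice. In 1447745_PM_at, at 10.26, 9.65 and 8.58 against 8.74, 8.65 and 8.59, that mouse held the lowest value of all and the difference was 0.84 ± 0.35, a fold of 1.79 (limma adjusted p 0.45).

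In both connexins TgCPEB4∆4 mouse 1 read highest, and mouse 2 above mouse 3. Gja1 probe set 1415801_PM_at, the brightest of its 5, read 11.89, 11.71 and 11.32 in TgCPEB4∆4 mice and 11.26, 11.26 and 11.39 in CTRL mice. The groups overlapped, since CTRL mouse 3 exceeded TgCPEB4∆4 mouse 3, and the difference was 0.33 ± 0.15 with a limma adjusted p of 0.47. The other 4 Gja1 probe sets differed by 0.41 to 0.69, and 1438973_PM_x_at had no overlap. Gjb6 read 6.89, 6.67 and 6.53 in TgCPEB4∆4 mice and 6.43, 6.38 and 6.30 in CTRL mice. Its groups were separate and its difference was 0.33 ± 0.12 (adjusted p 0.43), yet none of the 6 values reached the nonspecific control of its array.

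Aldh1l1, the folate enzyme used as a pan-astrocyte marker, read 9.51, 8.76 and 8.58 in TgCPEB4∆4 mice and 8.34, 8.07 and 8.26 in CTRL mice. Every TgCPEB4∆4 mouse was above every CTRL mouse, and the difference was 0.72 ± 0.22, a fold of 1.65, with a limma adjusted p of 0.42. Its second probe set, 1424401_PM_at, stayed between 4.34 and 4.83 on all arrays and was not tested. Aldoc probe set 1424714_PM_at read 9.96, 9.27 and 9.04 in TgCPEB4∆4 mice and 8.93, 8.55 and 8.69 in CTRL mice, a difference of 0.70 ± 0.22 with an adjusted p of 0.42. The brighter Aldoc probe set 1451461_PM_a_at, at 12.27, 12.01 and 11.94 against 11.98, 11.96 and 11.93, overlapped and differed by 0.12 ± 0.12. The 2 probe sets of this enzyme thus gave the same sign and different sizes.

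Sox9 had the highest fold when each of the 9 genes was taken at its brightest probe set. That probe set, 1451538_PM_at, read 9.77, 8.91 and 8.32 in TgCPEB4∆4 mice and 8.21, 8.18 and 8.20 in CTRL mice. The CTRL mice were almost identical, whereas the TgCPEB4∆4 mice spread over more than 1 log2 unit and all lay above them. The difference was 0.81 ± 0.30, a fold of 1.75, with a limma adjusted p of 0.43. Another Sox9 probe set, 1424950_PM_at, which was below the nonspecific control in all total RNA, differed by 0.02 ± 0.16. The third, 1433889_PM_at, stayed between 4.43 and 4.83 on all arrays and was not tested. S100b probe set 1434342_PM_at read 8.54, 8.26 and 7.85 in TgCPEB4∆4 mice and 8.12, 7.83 and 7.89 in CTRL mice, overlapping, with a difference of 0.27 ± 0.18 and an adjusted p of 0.56.

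**Figure D1:**
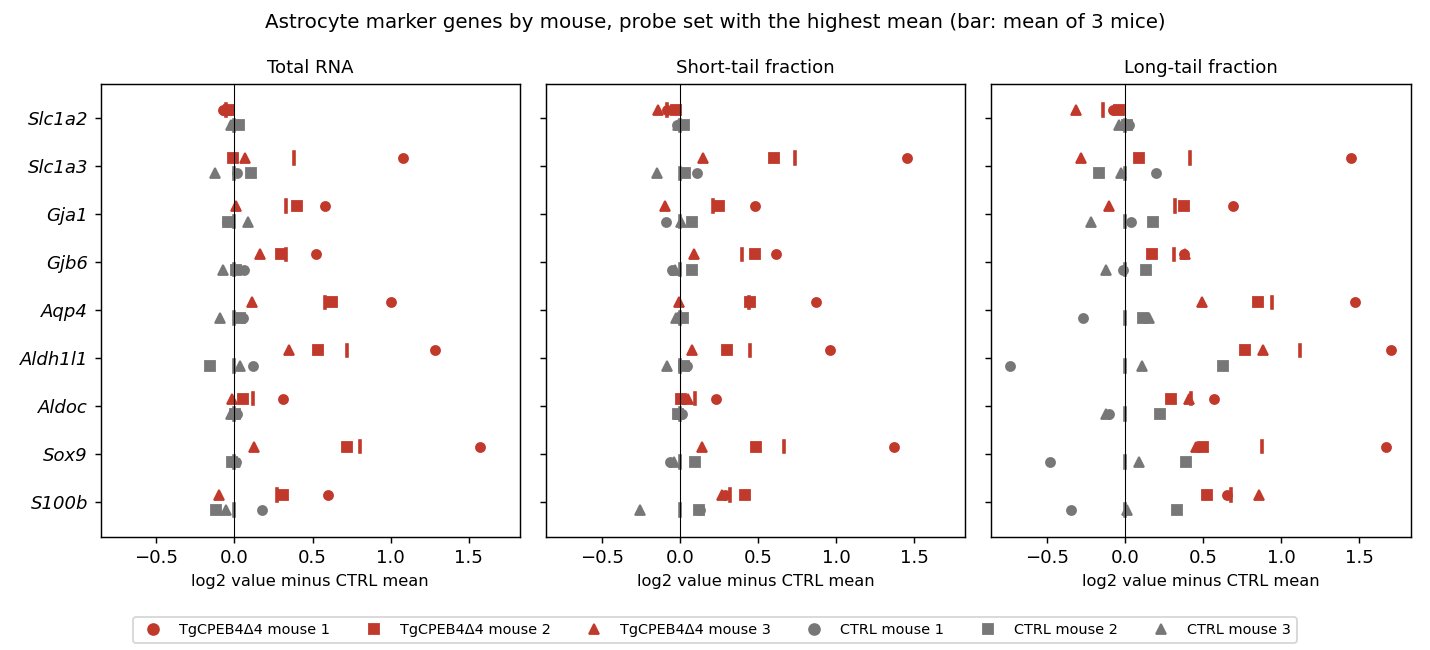
Log2 value of the brightest probe set of each of the 9 genes, minus its CTRL mean, in the 3 preparations (total RNA, short-tail, long-tail); points are mice, and bars are means of 3 mice. TgCPEB4∆4 mouse 1 (circle) lies farthest to the right for 8 of the 9 genes in total RNA, and Slc1a2 lies close to 0 there. In the long-tail fraction Slc1a2 read 12.50 in TgCPEB4∆4 mouse 3, against a CTRL mean of 12.82.

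Other gene lists shifted in the same mice. Over the brightest probe set of each gene, the median shift from the CTRL mean in total RNA was 0.60, 0.31 and 0.07 in TgCPEB4∆4 mice, and between -0.02 and 0.02 in CTRL mice. Other astrocyte genes, 35 measured of 38 listed, gave 0.40, 0.15 and 0.16 in TgCPEB4∆4 mice. Of these, 33 had a positive genotype difference, from -0.27 for Dio2 (a thyroid hormone deiodinase) to 1.04 for Itih3 (a matrix protein), and 0 passed the limma test.

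Reactive astrocyte and acute-phase genes, 13 measured of 18, had medians of 2.55, 0.39 and 0.07 in TgCPEB4∆4 mice, with CTRL medians from -0.0089 to 0.0081, and all 13 were highest in TgCPEB4∆4 mouse 1. Microglial markers, 10 measured of 11, gave 1.17, 0.40 and 0.16 in TgCPEB4∆4 mice. Meningeal and fibroblast markers, 8 of 10, gave 1.09, 0.67 and 0.32, and ependymal and choroid plexus markers, 5 of 8, gave 1.28, 0.29 and 0.31. These 4 lists were highest in TgCPEB4∆4 mouse 1. Detection was uneven in them, since 4 of 17 named reactive genes exceeded the nonspecific control in total RNA of all 6 mice. So did 8 of 10 microglial, 4 of 10 meningeal and fibroblast, and 2 of 8 ependymal and choroid plexus markers. Medians that include values below this control are not exact. Endothelial and mural markers, 10 of 10, gave 0.26, 0.16 and 0.07, and oligodendrocyte precursor markers, 4 of 6, gave -0.42, 0.03 and 0.18. Neuronal markers, 12 of 12, gave -0.23, 0.01 and -0.04, and oligodendrocyte markers, 9 of 10, gave -0.12, 0.01 and -0.19, farthest from 0 in TgCPEB4∆4 mouse 3. Across these lists the CTRL medians lay between -0.15 and 0.14. The part of other cell types in the astrocyte values was not tested.

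**Figure D2:**
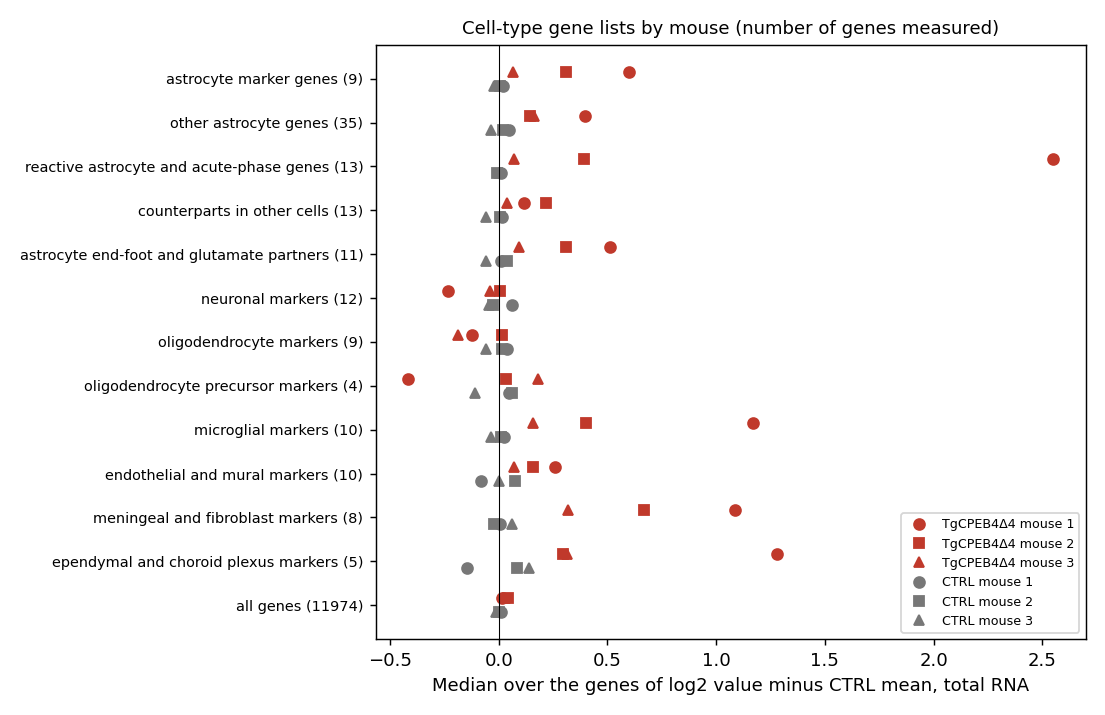
Median over the genes of each list of the log2 total RNA value minus the CTRL mean; points are mice, and the number of genes measured is in brackets. The reactive list of TgCPEB4∆4 mouse 1 sits at 2.55, and the astrocyte markers of the 3 TgCPEB4∆4 mice sit at 0.60, 0.31 and 0.07.

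Without TgCPEB4∆4 mouse 1 the median difference of the 9 genes in total RNA was 0.21, with 8 of 9 still positive, and that of the reactive list was 0.13. In the short-tail fraction the 9-gene median was 0.23 without that mouse, against 0.40 with it. In the long-tail fraction it was 0.35 without it, against 0.42 with it. For the reactive list, the total RNA median had been 1.29 with that mouse. Its short-tail median was 0.70 without the mouse, with 13 of 13 genes positive, against 1.40 when all mice were kept. The long-tail median of this list fell from 1.47 to 0.33 without the mouse, where 10 of 13 genes were positive.

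Both poly(A) fractions repeated the direction seen in total RNA, from the same mice. In the short-tail fraction 18 of 19 probe sets had a positive difference, and in the long-tail fraction 17 of 19. No member passed in either fraction, and neither did any of the 27022 probe sets, a background of 0% in each. The limma adjusted p-values of the members ran from 0.22 to 0.74 in the short-tail fraction and from 0.28 to 0.61 in the long-tail fraction. Unadjusted p-values under 0.05 were found in 10 and 12 members, out of 4466 and 4454 probe sets in the short-tail and long-tail fractions. TgCPEB4∆4 and CTRL mice did not overlap in 6 members of the short-tail fraction with TgCPEB4∆4 above, and in 1 with it below, against 14.1% and 10.5% of all probe sets. In the long-tail fraction 12 members had all TgCPEB4∆4 mice above, against 14.1% of all, and 0 had all below, against 10.3% of all. Several of these 12 were probe sets of the same gene, namely of Gja1, Aldoc and S100b. Without TgCPEB4∆4 mouse 3, 3 members (Aqp4 1425382_PM_a_at and 1447745_PM_at, and Gjb6) passed in the short-tail fraction, where 1.33% of all probe sets then passed. Without CTRL mouse 2, 7 members passed in the long-tail fraction, where 8.58% of all probe sets then passed. CTRL mouse 1, whose long-tail array stands apart, held the lowest long-tail value in 9 members. This count has no share over all probe sets beside it, so it describes these members only.

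In the short-tail fraction, Slc1a3 had the highest difference over the brightest probe sets of the 9 genes; Aqp4 1447745_PM_at was higher, at 0.78. Slc1a3 read 7.89, 7.04 and 6.58 in TgCPEB4∆4 mice and 6.55, 6.47 and 6.29 in CTRL mice. All TgCPEB4∆4 mice were above all CTRL mice, all 6 values exceeded the nonspecific control there, and the difference was 0.74 ± 0.28 (limma adjusted p 0.26). Gjb6 read 7.53, 7.39 and 7.0 in TgCPEB4∆4 mice and 6.86, 6.99 and 6.88 in CTRL mice. Its groups were just separate, all values were above the nonspecific control, and the difference was 0.40 ± 0.14 (limma adjusted p 0.23). Slc1a2 1451627_PM_a_at, at 12.33, 12.38 and 12.27 in TgCPEB4∆4 mice and 12.39, 12.44 and 12.40 in CTRL mice, was again lower without overlap, by a difference of -0.08 ± 0.09.

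In the long-tail fraction, Aldh1l1 had the highest difference over the brightest probe sets of the 9 genes. It read 9.51, 8.57 and 8.69 in TgCPEB4∆4 mice and 7.07, 8.43 and 7.91 in CTRL mice. The groups were separate and the CTRL mice were the more scattered, with CTRL mouse 1 below the nonspecific control of its array. The difference was 1.12 ± 0.38 with a limma adjusted p of 0.28. Aqp4 1434449_PM_at read 11.22, 10.61 and 10.24 in TgCPEB4∆4 mice and 9.48, 9.87 and 9.91 in CTRL mice, a difference of 0.94 ± 0.27 (adjusted p 0.28). S100b 1434342_PM_at, at 7.99, 7.86 and 8.20 in TgCPEB4∆4 mice and 6.99, 7.67 and 7.35 in CTRL mice, did not have its highest value in TgCPEB4∆4 mouse 1. Its difference was 0.68 ± 0.22 (limma adjusted p 0.28), and its CTRL mouse 1 value was below the nonspecific control of that array.

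The largest single difference was at Gja1 1415800_PM_at in the long-tail fraction. It read 9.96, 9.30 and 9.36 in TgCPEB4∆4 mice and 5.93, 9.09 and 7.56 in CTRL mice. The value of CTRL mouse 1 was below the nonspecific control of its array, and CTRL mouse 2 was close to the TgCPEB4∆4 mice. The difference was 2.01 ± 0.68 with a limma adjusted p of 0.28, whereas the brightest Gja1 probe set differed by 0.32 ± 0.24.

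The tail ratio, the log2 long-tail value minus the log2 short-tail value within a mouse, split the markers by its sign. Slc1a2 and Slc1a3, the glutamate transporters, had positive ratios in 6 of 6 mice on all 3 of their probe sets, toward the long-tail fraction. The other 7 genes had negative ratios in 6 of 6 mice on all 16 of their tested probe sets, toward the short-tail fraction. Among these, Gja1 1415801_PM_at passed against 0 in neither genotype (limma adjusted p 0.56 in TgCPEB4∆4 mice and 0.18 in CTRL mice). Its ratio stood at percentiles 50.6 and 43.6 of all tested probe sets. Over all 27022 probe sets, 26.4% were positive and 36.6% were negative in all 6 mice. The ratio compares 2 arrays that were normalised by RMA, so it ranks transcripts within a mouse and is not a tail length. The SD of the log2 values ran from 1.7 to 2.0 over the 18 arrays, so their distributions were not identical.

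Against 0, 8 of 19 probe sets passed in TgCPEB4∆4 mice, 1 higher and 7 lower, where 31.8% of all probe sets passed, 12.7% higher and 19.1% lower. In CTRL mice 17 of 19 passed, 3 higher and 14 lower, where 63% of all passed, 27.6% higher and 35.4% lower. The median of the 9 genes was -0.24 in TgCPEB4∆4 mice, against -0.17 over all genes, and -0.49 in CTRL mice, against -0.18 over all genes. Both genotypes share 1 estimate of the spread in this test, so calls in TgCPEB4∆4 mice also depend on the scatter of CTRL mice. With TgCPEB4∆4 mouse 1 or mouse 2 left out, 0 members and 0 of all probe sets passed in TgCPEB4∆4 mice. With TgCPEB4∆4 mouse 3 left out 6 members passed there (23.3% of all probe sets), with CTRL mouse 3 left out 6 (24.6% of all), and with CTRL mouse 1 left out 12 (50.2% of all). With the arrays quantile normalised again 3 members passed there, Slc1a3, Gjb6 and S100b 1419383_PM_at, beside 18.5% of all. In CTRL mice 13 members passed without CTRL mouse 3 (48.5% of all), and 16 or 17 with any other single mouse left out (52.2% to 62.7% of all). The CTRL median was -0.27 with quantile normalization and -0.75 with the mean of each gene's probe sets.

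Slc1a3 had the highest tail ratio of the members. It was 0.94, 0.44 and 0.52 in TgCPEB4∆4 mice and 1.04, 0.75 and 1.07 in CTRL mice. All 6 were positive and the genotypes overlapped. The mean was 0.64 ± 0.14 in TgCPEB4∆4 mice (limma adjusted p 0.016) and 0.95 ± 0.14 in CTRL mice (limma adjusted p 0.0012), at percentiles 92.6 and 93.7 of all tested probe sets. Its long-tail value exceeded its total RNA value in 6 of 6 mice, by 0.39 on average. That size is not exact, since its total RNA value exceeded the nonspecific control in only 1 TgCPEB4∆4 mouse and 1 CTRL mouse. On the other side, Aldh1l1, S100b and Gjb6 had short-tail values above total RNA in 6 of 6 mice on every tested probe set. Some but not all tested probe sets of Gja1, Sox9 and Aldoc did so too. Among all of these, the mean excess was highest for Aldh1l1 1424400_PM_a_at, at 0.74, and next for S100b 1434342_PM_at, at 0.61. It was 0.58 for Gjb6, and the lowest was 0.35 for Gja1 1437992_PM_x_at. These counts against total RNA have no share over all probe sets beside them, so they describe these members only.

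Slc1a2 1451627_PM_a_at had ratios of 0.42, 0.40 and 0.23 in TgCPEB4∆4 mice and 0.45, 0.40 and 0.38 in CTRL mice. The values were almost the same in 5 of the 6 mice, and TgCPEB4∆4 mouse 3 was lower. The mean was 0.35 ± 0.12 in TgCPEB4∆4 mice (limma adjusted p 0.051) and 0.41 ± 0.12 in CTRL mice (limma adjusted p 0.016, or 0.058 without CTRL mouse 3). The second Slc1a2 probe set, 1459014_PM_at, had ratios of 0.44, 0.25 and 0.15 in TgCPEB4∆4 mice and 0.86, 0.28 and 0.67 in CTRL mice. It passed in CTRL mice (0.60 ± 0.15, adjusted p 0.0081) and not in TgCPEB4∆4 mice (0.28 ± 0.15, adjusted p 0.17). In both probe sets the short-tail value was below the total RNA value in 6 of 6 mice, again without a share over all probe sets beside it.

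S100b and Gjb6 had the lowest tail ratios of the 9 genes in TgCPEB4∆4 mice. S100b 1434342_PM_at had ratios of -0.83, -1.08 and -0.60 in TgCPEB4∆4 mice and -1.67, -0.99 and -0.93 in CTRL mice, all clearly below 0 and overlapping. The mean was -0.84 ± 0.18 in TgCPEB4∆4 mice (limma adjusted p 0.012) and -1.19 ± 0.18 in CTRL mice (limma adjusted p 0.0011). The second S100b probe set passed in both genotypes too, at -0.74 ± 0.14 in TgCPEB4∆4 mice (adjusted p 0.0091) and -1.08 ± 0.14 in CTRL mice (adjusted p 0.00077). In both S100b probe sets the long-tail value of CTRL mouse 1 was below the nonspecific control of its array. The size of the CTRL means of S100b is therefore not exact. Gjb6 had ratios of -1.08, -1.15 and -0.55 in TgCPEB4∆4 mice and -0.81, -0.79 and -0.94 in CTRL mice. Its mean was -0.93 ± 0.15 in TgCPEB4∆4 mice (limma adjusted p 0.0057) and -0.84 ± 0.15 in CTRL mice (limma adjusted p 0.0021). Its long-tail values exceeded the nonspecific control in 2 of 3 TgCPEB4∆4 mice and 1 of 3 CTRL mice, so the size of its ratio is not exact.

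Aldh1l1 had ratios of -0.55, -0.83 and -0.49 in TgCPEB4∆4 mice and -2.08, -0.70 and -1.11 in CTRL mice. CTRL mouse 1, whose long-tail value was below the nonspecific control, was far below the rest. CTRL mouse 2 lay among the TgCPEB4∆4 mice. The mean was -1.30 ± 0.24 in CTRL mice, which passed (limma adjusted p 0.0024), and -0.63 ± 0.24 in TgCPEB4∆4 mice, which did not (limma adjusted p 0.073). The TgCPEB4∆4 mean did pass when fitted on that genotype's own 3 mice (limma adjusted p 0.0012), without CTRL mouse 1 (limma adjusted p 0.0033), without CTRL mouse 2 (limma adjusted p 0.033) and after rescaling (limma adjusted p 0.00021). Aldoc passed in CTRL mice on both probe sets, at -1.05 ± 0.16 (adjusted p 0.0012) and -0.45 ± 0.13 (adjusted p 0.016), and on neither in TgCPEB4∆4 mice. Sox9 likewise passed in CTRL mice on both tested probe sets, at -0.49 ± 0.16 (limma adjusted p 0.028) and -0.37 ± 0.12 (limma adjusted p 0.027). Long-tail values of the second, 1424950_PM_at, exceeded the nonspecific control in 2 of 3 TgCPEB4∆4 mice and 1 of 3 CTRL mice. The size of that ratio is not exact. Without CTRL mouse 1 neither Sox9 probe set passed, with limma adjusted p-values of 0.14 and 0.084, and without CTRL mouse 3 they were 0.063 and 0.064. The second also missed the threshold without CTRL mouse 2 (limma adjusted p 0.062) or TgCPEB4∆4 mouse 1 (limma adjusted p 0.052), and Aldoc 1451461_PM_a_at missed it without CTRL mouse 3 (limma adjusted p 0.088). Sox9 1451538_PM_at and Aldoc 1451461_PM_a_at also missed it with quantile normalization (limma adjusted p 0.44 and 0.087). On the CTRL mice alone both Sox9 probe sets (limma adjusted p 0.084 and 0.089) and Aldoc 1451461_PM_a_at (limma adjusted p 0.069) missed it.

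Aqp4 1434449_PM_at had ratios of -0.14, -0.34 and -0.25 in TgCPEB4∆4 mice and -1.01, -0.65 and -0.56 in CTRL mice, without overlap. It passed in CTRL mice (-0.74 ± 0.13, limma adjusted p 0.0024) and not in TgCPEB4∆4 mice (-0.24 ± 0.13, adjusted p 0.19). The probe set 1425382_PM_a_at passed in both, at -0.60 ± 0.13 in TgCPEB4∆4 mice (limma adjusted p 0.015) and -0.84 ± 0.13 in CTRL mice (limma adjusted p 0.0015). The third, 1447745_PM_at, had ratios of -0.56, -0.70 and -0.87 in TgCPEB4∆4 mice and -0.03, -1.07 and -0.27 in CTRL mice. It passed in TgCPEB4∆4 mice (-0.71 ± 0.20, limma adjusted p 0.029) and not in CTRL mice (-0.46 ± 0.20, limma adjusted p 0.068), so the probe sets of this gene differed in which genotype had the lower mean ratio.

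All 5 probe sets of Gja1 had negative ratios, and 4 of them passed in CTRL mice. In CTRL mice the means ran from -0.21 ± 0.13 at 1415801_PM_at (limma adjusted p 0.18) to -2.18 ± 0.46 at 1415800_PM_at (limma adjusted p 0.0044). This second mean rests on ratios of -3.83, -0.79 and -1.92 in CTRL mice, against -0.50, -0.65 and -0.10 in TgCPEB4∆4 mice. Between them, 3 probe sets lay closer together. The first, 1438945_PM_x_at, had a mean of -0.61 ± 0.18 in TgCPEB4∆4 mice (limma adjusted p 0.034) and -1.32 ± 0.18 in CTRL mice (limma adjusted p 0.00084). The second, 1437992_PM_x_at, was at -0.46 ± 0.14 in TgCPEB4∆4 mice (limma adjusted p 0.041) and -0.91 ± 0.14 in CTRL mice (limma adjusted p 0.0014). The third, 1438973_PM_x_at, was at -0.39 ± 0.14 in TgCPEB4∆4 mice (limma adjusted p 0.067) and -0.80 ± 0.14 in CTRL mice (limma adjusted p 0.0022). Probe sets of 1 gene share its transcripts, so they are not separate evidence, and which transcript end each one reads was not stated in those sources.

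**Figure D3:**
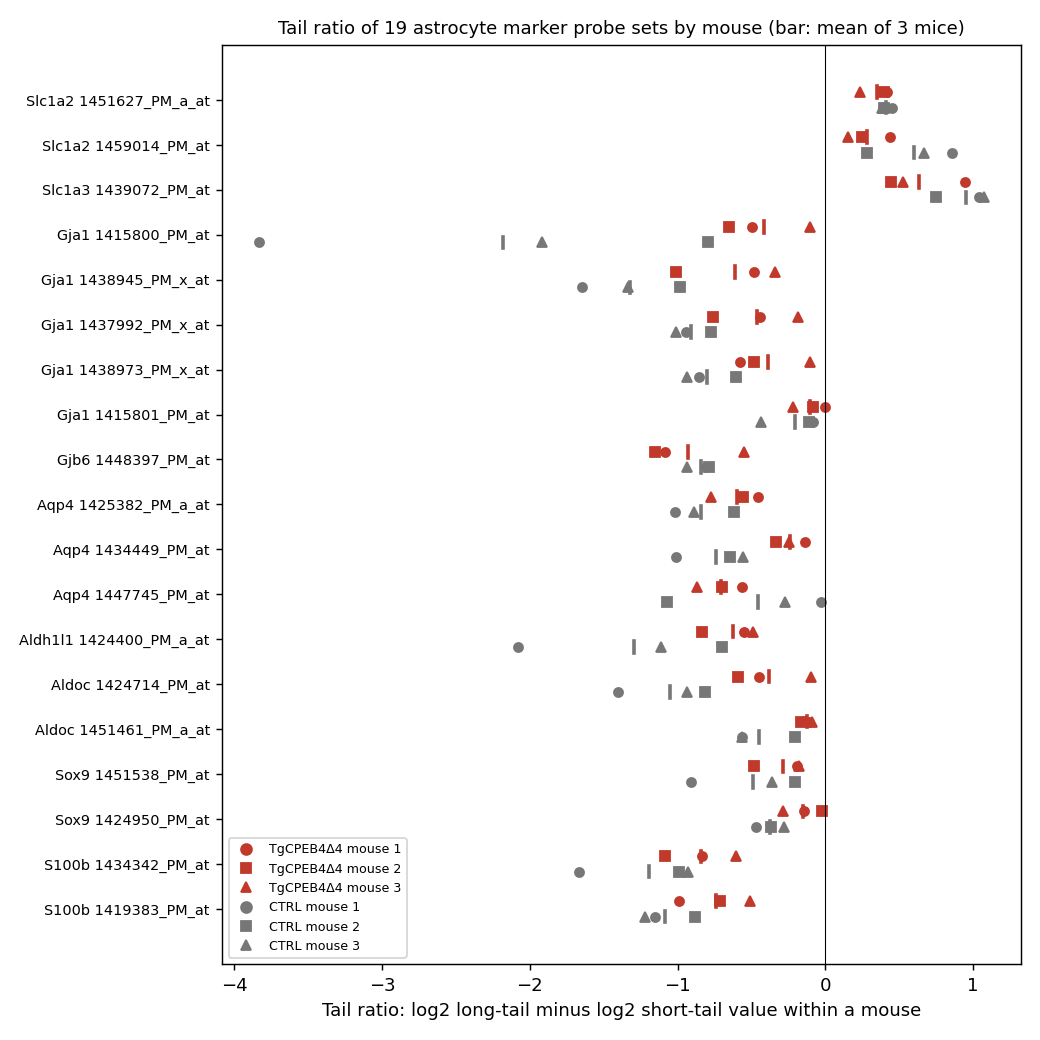
Tail ratio (log2 long-tail minus log2 short-tail value) of the 19 tested probe sets; points are mice and bars are means of 3 mice. The 3 probe sets of Slc1a2 and Slc1a3 lie right of 0 in all mice, the other 16 lie left of it, and CTRL mouse 1 reaches -3.83 at 1 Gja1 probe set.

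The tail ratio of the members did not differ between genotypes past the threshold. Of 19 probe sets, 14 had a positive difference, that is a ratio less tilted to short tails in TgCPEB4∆4 mice, with a 9-gene median of 0.21 against 0.02 over all genes. That median was 0.049 when each mouse's ratios were rescaled to the same SD over all probe sets, 0.11 with the arrays quantile normalised again, 0.12 without CTRL mouse 1 and 0.35 without CTRL mouse 2. None passed (limma adjusted p 0.37 to 0.87), nor did any of the 27022 probe sets, a background of 0%, where 3621 probe sets and 4 members had an unadjusted p under 0.05. In 6 members, 1 probe set of Aqp4, 3 of Gja1 and both of Aldoc, all TgCPEB4∆4 mice lay above all CTRL mice, against 9.66% of all probe sets. In 0 members all lay below, against 8.57% of all. Without CTRL mouse 2, 1 member passed, Gja1 1415800_PM_at at 2.46 (limma adjusted p 0.024), while 9.2% of all probe sets passed. The positive differences were at members with negative ratios and the negative ones at both glutamate transporters, Gjb6 and 1 Aqp4 probe set. In the same rescaling, Slc1a2 1451627_PM_a_at turned to 0.10, Slc1a3 to 0.05, Sox9 1451538_PM_at to -0.0058 and S100b 1434342_PM_at to -0.12.

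The sizes can be seen in a pair of members. Aldoc 1424714_PM_at had ratios of -0.45, -0.59 and -0.10 in TgCPEB4∆4 mice and -1.40, -0.81 and -0.93 in CTRL mice. The groups were separate, and the difference was 0.67 ± 0.23 with a limma adjusted p of 0.37. Slc1a3, with a difference of -0.32 ± 0.20 (adjusted p 0.47), pointed the other way.

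Related genes from other lists placed the members' tail ratios. Of 35 other astrocyte genes, 1 was higher and 7 were lower than 0 in TgCPEB4∆4 mice by the same limma test. In CTRL mice 7 were higher and 17 lower. Over all probe sets, 12.7% were higher and 19.1% lower in TgCPEB4∆4 mice, and 27.6% and 35.4% in CTRL mice. Zbtb20, a transcription factor, was the highest, at 0.95 ± 0.12 in TgCPEB4∆4 mice (adjusted p 0.0039) and 1.12 ± 0.12 in CTRL mice (adjusted p 0.00053). Itih3 was at -0.82 ± 0.20 in TgCPEB4∆4 mice and -1.58 ± 0.20 in CTRL mice (adjusted p 0.018 and 0.00067). The lipid carrier Apoe, at -0.93 ± 0.19 in TgCPEB4∆4 mice and -1.27 ± 0.19 in CTRL mice (adjusted p 0.011 and 0.0012), and Ppp1r3c, a glycogen phosphatase subunit, at -0.82 ± 0.19 and -1.33 ± 0.19 (adjusted p 0.016 and 0.00099), were below 0 in both. The tight-junction gene Cldn10 was lowest in CTRL mice, at -2.15 ± 0.31 (adjusted p 0.0011).

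**Figure D4:**
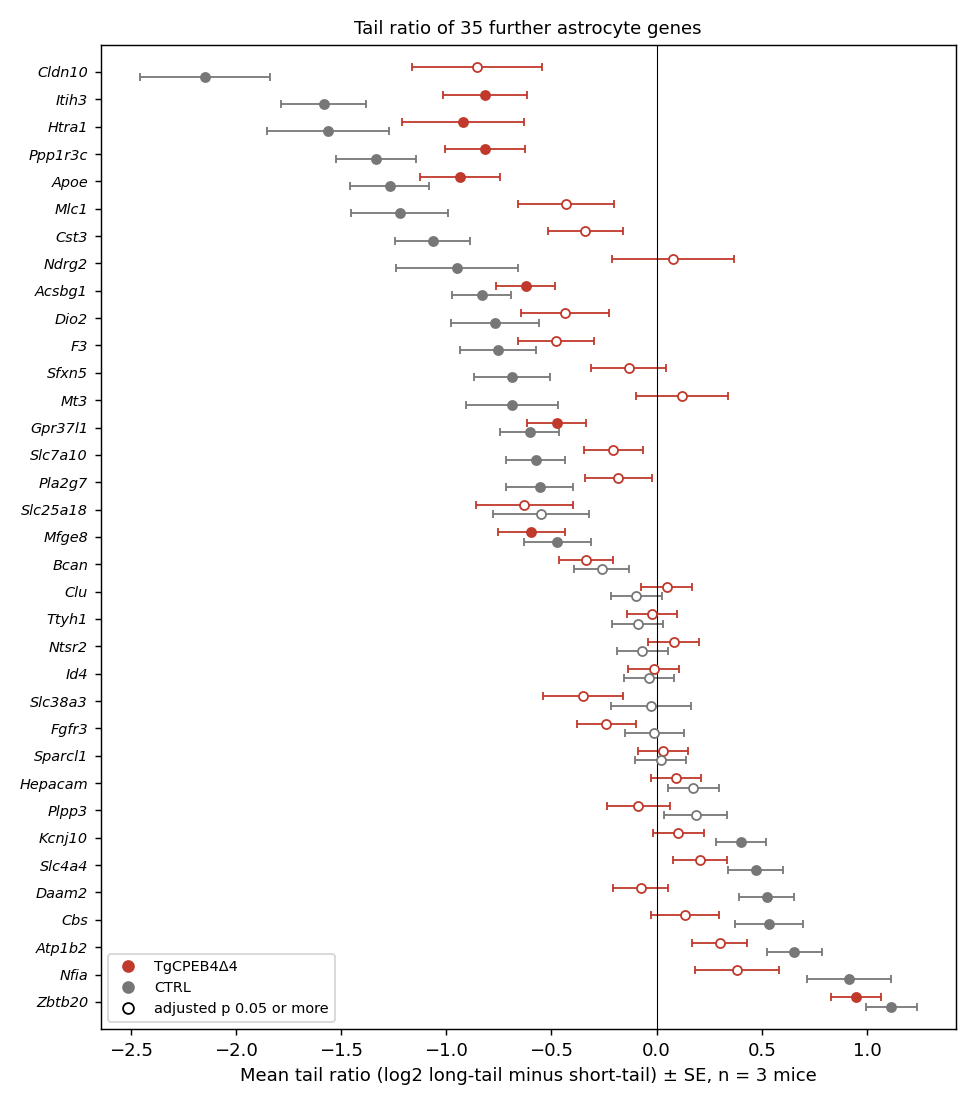
Mean tail ratio of 3 mice for 35 other astrocyte genes, with the SE of the fit. Both genotypes share 1 estimate of the spread, so the SE is not the scatter of the 3 mice shown. Filled points have a limma adjusted p under 0.05. In CTRL mice 7 genes lie right of 0 past the threshold and 17 left of it, from -2.15 for Cldn10 to 1.12 for Zbtb20. Of all probe sets, 27.6% passed higher and 35.4% lower in CTRL mice.

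Counterparts of the members in other cells, 13 measured of 20, gave 0 higher and 3 lower in TgCPEB4∆4 mice. In CTRL mice they gave 0 higher and 7 lower. The shares over all probe sets were 12.7% higher and 19.1% lower in TgCPEB4∆4 mice, and 27.6% and 35.4% in CTRL mice. Slc1a1, the neuronal glutamate transporter, had a mean ratio of -0.14 ± 0.31 in TgCPEB4∆4 mice (limma adjusted p 0.75) and -1.26 ± 0.31 in CTRL mice (limma adjusted p 0.0083), on the opposite side of 0 from the astrocytic Slc1a2 and Slc1a3. S100a1, a relative of S100b, was at -1.34 ± 0.13 in TgCPEB4∆4 mice (limma adjusted p 0.0028) and -1.72 ± 0.13 in CTRL mice (limma adjusted p 0.00045). Among the 11 measured of 13 end-foot and glutamate partners, 3 were higher in CTRL mice. These were Atp1b2 (a sodium pump subunit, 0.65 ± 0.13), Dtna (dystrobrevin, 0.59 ± 0.14) and the potassium channel Kcnj10 (0.40 ± 0.12). Glud1, Mlc1 and Ezr were lower there, at -0.91 ± 0.17, -1.22 ± 0.23 and -0.77 ± 0.19, and in TgCPEB4∆4 mice only Ezr passed, at -0.80 ± 0.19.

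The genes whose pattern was most like the members' mean were found by Pearson correlation over the 18 arrays, given as a description because arrays of 1 mouse share their source. The 8 highest were Pdpn (0.99), Hspb8 (0.98), Rnase4 (0.98), Cyba (0.97), Cebpa (0.97), Cd68 (0.97), Itih3 (0.97) and Cd53 (0.97). Cd68 and Cd53 are genes of microglia and other leukocytes, and Itih3 is on the list of other astrocyte genes. Among the members, the correlation with the mean of the set was 0.95 for Sox9, 0.43 for Slc1a3 and -0.48 for Slc1a2. Each member is itself part of that mean. The 18 arrays also mix total RNA with both fractions, so these values do not separate differences between mice from differences between preparations.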

How the data were processed

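The authors deposited a table of log2 values, 1 per probe set and array, and the submitters' processing notes name RMA as the method. Its version, and whether the 18 arrays were normalised together, were not stated in the sources read. The design text names another array than the one whose probe-set names and annotation the table carries, and the table's annotation was used. The labels' protocols give 5 ng of RNA as input, 21 amplification cycles and 8 µg of labelled cDNA, which can compress or stretch differences. Arrays have no sequencing depth; precision is set by the number of mice, 3 a genotype.

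Of 45141 rows, 104 controls were left out. Probe sets with a mean over the 18 arrays above the 40th percentile (log2 5.95) were kept, 27022 in all. The gene annotation named 1 gene for 28898 of 45037 probe sets, several for 551 and none for 15588. A gene stands for its probe set with the highest mean where 1 value per gene is given, with the mean of all its probe sets as an alternative. Detection was judged against the highest of 23 nonspecific control probe sets of the same array.

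The log2 values were fitted in R 4.3.3 by limma 3.58.1 (lmFit, eBayes); p-values (two-sided) were adjusted over the 27022 probe sets by Benjamini-Hochberg, and a result passed at an adjusted p under 0.05. Each preparation was compared between genotypes with 3 mice each, errors are SEs of the fit, and the tail ratio was taken within a mouse, whose fractions the titles pair. Deviations from the group means correlated between the fractions of a mouse at 0.72, 0.33 and 0.43 in TgCPEB4∆4 mice and at -0.07, 0.16 and -0.03 in CTRL mice. Across genotypes the numbers gave 12 correlations from -0.31 to 0.36, of which 7 exceeded 0.1, so they were not used to pair mice. The script was tested on simulated data.

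The members and the lists were chosen with earlier results of these data known. All tested member genes are named. From each other list and comparison up to 4 genes past the threshold with the smallest p were named, together with the lowest and highest of a list. Itih3 and Slc1a1 in TgCPEB4∆4 mice, Apoe and Ezr in CTRL mice and Kcnj10 were named after their values were seen. Figures were drawn with matplotlib 3.10.9.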

Additional observations from a re-analysis of the deposited data

How the results depend on the processing

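Filters, a repeated quantile normalization, centring, the mean of a gene's probe sets, the replicate block, rescaled tail ratios and leaving out each mouse were tried, and leaving out mouse 1 of both genotypes together was added after seeing the data. In total RNA 0 probe sets passed under every alternative run, and the 9-gene median stayed positive, from 0.20 to 0.49. Over all probe sets the short-tail fraction had 0 calls, and 5 with the 60th percentile as filter, 2 with quantile normalization, 2 with centring and 6 with gene means, and 0 to 359 with single mice left out (members 0 to 3). The long-tail fraction gave 0 to 2319 with mice left out (members 0 to 7), and the genotype difference in tail ratio 0 to 2487 (members 0 to 1). The tail ratio in TgCPEB4∆4 mice passed for 8601 probe sets, and for 4612 with the 60th percentile, 4986 with quantile normalization (members 3, median -0.081), 14521 on that genotype's own 3 mice (members 13), 16523 after rescaling (members 15), and 0 to 13560 with mice left out (members 0 to 12). Its median was -0.40 with gene means. In CTRL mice 17 members passed (63% of all probe sets), and the median ran from -0.75 to -0.27. Under the alternatives 13 to 18 members passed there, such as 13 on the CTRL mice alone (45.7% of all) and 18 with centring (61.7% of all). The median of the genotype difference in tail ratio ran from 0.049 (rescaled) to 0.35. The causes were not tested.

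Numbers across genotypes share only a number: with a replicate block the 9-gene medians stayed at 0.33, 0.40, 0.42 and 0.21 in total RNA, the short-tail and long-tail fractions and the tail-ratio difference, with 0 probe sets past the threshold. Without pairing the fractions of a mouse (no replicate block), 4 members and 7789 of all probe sets (28.8%) passed in TgCPEB4∆4 mice. In CTRL mice 13 members and 16291 of all (60.3%) passed. The unpaired fit and the rescaling act on the tail ratio alone and were not run for single fractions.

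Signs turned at these members, none of them past the threshold, with the range over single mice left out. In total RNA, Sox9 1424950_PM_at ran from -0.12 (without TgCPEB4∆4 mouse 1) to 0.15, with -0.08 without CTRL mouse 2 and -0.13 without mouse 1 of both genotypes. Slc1a2 1459014_PM_at ran from -0.0062 (without CTRL mouse 3; -0.0022 without TgCPEB4∆4 mouse 3) to 0.039. The lowest values without TgCPEB4∆4 mouse 1 were -0.0037 for short-tail Gja1 1415800_PM_at (highest 0.50), -0.054 for short-tail Sox9 1424950_PM_at (highest 0.47, and -0.084 without mouse 1 of both) and -0.097 for long-tail Slc1a3 (highest 0.77). For the tail-ratio difference, Gja1 1415801_PM_at ran from -0.0045 (without CTRL mouse 3) to 0.17 and was -0.028 with quantile normalization. Gjb6 ran from -0.27 to 0.026 (without TgCPEB4∆4 mouse 2) and was 0.089 with quantile normalization and 0.010 without mouse 1 of both. Sox9 1451538_PM_at ran from -0.0028 (without CTRL mouse 1) to 0.35 and was -0.049 without mouse 1 of both. After rescaling, the difference was -0.17 at Aqp4 1425382_PM_a_at, 0.10 at Slc1a2 1451627_PM_a_at, 0.049 at Slc1a3, -0.0058 at Sox9 1451538_PM_at, -0.12 at S100b 1434342_PM_at and -0.045 at S100b 1419383_PM_at. In CTRL mice the tail ratio of Gja1 1415801_PM_at was 0.024 with quantile normalization.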

Other observations

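All counts of tail ratios here stand beside these shares of all probe sets: 12.7% higher and 19.1% lower in TgCPEB4∆4 mice, 27.6% and 35.4% in CTRL mice. Microglial markers, 10 measured, gave 0 higher and 5 lower than 0 in TgCPEB4∆4 mice, by the limma test used for the members. In CTRL mice they gave 0 higher and 7 lower. The complement gene C1qa was at -1.22 ± 0.20 in TgCPEB4∆4 mice (adjusted p 0.0064) and -1.52 ± 0.20 in CTRL mice (adjusted p 0.00084). Oligodendrocyte markers, 9 measured, gave 0 higher and 4 lower in TgCPEB4∆4 mice, and 0 higher and 7 lower in CTRL mice, with Ermn, a myelin cytoskeletal gene, at -0.64 ± 0.14 in TgCPEB4∆4 mice (adjusted p 0.014) and -1.08 ± 0.14 in CTRL mice (adjusted p 0.00075). Oligodendrocyte precursor markers, 4 measured, gave 0 calls in TgCPEB4∆4 mice, and 1 higher (Gpr17) and 1 lower (Olig1) in CTRL mice.

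The same shares, 12.7% higher and 19.1% lower in TgCPEB4∆4 mice and 27.6% and 35.4% in CTRL mice, are the background of the next lists. Neuronal markers, 12 measured, gave 0 calls in TgCPEB4∆4 mice, and 1 higher and 3 lower in CTRL mice. Endothelial and mural markers, 10 measured, gave 0 higher and 4 lower in TgCPEB4∆4 mice, and 1 higher and 5 lower in CTRL mice. Cldn5, a tight-junction gene of brain vessels, was at -1.03 ± 0.14 in TgCPEB4∆4 mice (limma adjusted p 0.0042) and -0.96 ± 0.14 in CTRL mice (limma adjusted p 0.001), and the VEGF receptor Flt1 was at 0.74 ± 0.14 in CTRL mice (limma adjusted p 0.0032). Of 13 reactive astrocyte genes, 0 were higher and 3 lower in TgCPEB4∆4 mice, and 1 was higher and 4 lower in CTRL mice. Gfap, the intermediate filament of reactive astrocytes, was at -0.09 ± 0.12 in TgCPEB4∆4 mice (adjusted p 0.60) and -0.35 ± 0.12 in CTRL mice (limma adjusted p 0.036).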
